A study of Homo sapiens with 24 samples.

Results

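The transcripts described here come from 10 genes of transforming growth factor-beta (TGF-beta) and bone morphogenetic protein (BMP) signalling, measured in the human liver cancer line HepG2. They are the receptors TGFBR2, TGFBR1 and ACVR2B, the inhibitors BAMBI, SMAD7, SMAD6 and SKIL, and the target genes ID1, ID2 and ID3, and they make up 10 of the 34618 genes in the deposited count table. They were chosen by symbol, after earlier results of these data had shown TGFBR2 RNA to be longer lived in the knockdown lines and BAMBI RNA to be short lived. The decay of TGFBR2 and BAMBI is therefore given as a description with no test, and their levels before the drug, as well as all values of the other 8 genes, were tested.

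Cells carried 1 of 3 stable lentiviral short hairpins: against SETD2 (shSETD2), against METTL14 (shMETTL14) or non-specific (shCtrl). All lines had been selected with puromycin at 1 µg/mL, and each was sequenced untreated (0 h) and after 1, 3 and 6 h in actinomycin D at 5 µg/mL, a drug that stops transcription. Line and time make 12 groups of 2 libraries, 24 in all. The sources used here do not give how many hairpins or infections stand behind a line, so each counts as a single stable line.

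In this pathway a ligand brings type II receptors such as TGFBR2 and ACVR2B together with type I receptors such as TGFBR1. The type I receptor phosphorylates receptor-regulated SMAD proteins, which join SMAD4 and act in the nucleus. Several of the genes switched on, among them SMAD6, SMAD7, SKIL and BAMBI, hold the signal back, and ID1, ID2 and ID3 are classic BMP targets that block basic helix-loop-helix factors. METTL14 is a subunit of the enzyme that writes N6-methyladenosine (m6A) on messenger RNA, a mark linked to RNA decay, and SETD2 trimethylates lysine 36 of histone H3.

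Library totals ran from 18.3 to 31.4 M counts, so the limit that a count of 0 allows, taken as 3 counts, corresponded to 0.0955 to 0.164 CPM (counts scaled to a common library size). SETD2 RNA in shSETD2 was 46.0% to 66.4% of shCtrl over the 4 times, and METTL14 RNA in shMETTL14 was 28.9% to 48.8% of shCtrl, so both knockdowns were partial. The 2 libraries of shSETD2 at 6 h stood further apart than any other pair, with a chi-square of 19.5 per degree of freedom against 1.37 to 5.63 in the other 11 pairs, and slopes that rest on them are also given without each. All 8 hepatocyte markers, ALB and APOB among them, were detected in every library. At 0 h, 6 blood and immune markers summed to 2.49 to 3.32 CPM with PTPRC and CD3E at 0, 3 endothelial markers to 0.277 to 1.37 CPM with KDR at 0, and 4 markers of the virus-producing HEK293T line to 0.106 to 0.453 CPM. The 7 fibroblast and stellate markers summed to 48.4 to 51.9 CPM in shSETD2, 50.8 to 53.5 CPM in shMETTL14 and 45.5 to 49.0 CPM in shCtrl. Over all libraries ACTA2 ran from 22.3 to 53.9 CPM, PDGFRB from 7.59 to 48.9 and COL1A1 from 4.04 to 19.1. COL3A1 reached at most 0.237 CPM, LUM 0.0824 and COL1A2 0.0400, and DCN was at 0 throughout. The summed hepatocyte markers at 0 h came to 99038 to 99994 CPM in shSETD2, 58848 to 59057 CPM in shMETTL14 and 51518 to 51702 CPM in shCtrl, and the part of that shift in the differences at 0 h was not tested. Every level is set against the rest of the RNA in its library, and fewer cells and less RNA per cell cannot be told apart.

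Per transcript length, the order of the members before the drug was nearly the same in each line. TGFBR2 was highest, at 162 ± 2.16 RPKM (counts per kilobase of exon, scaled to the library total) in shSETD2, 186 ± 1.12 in shMETTL14 and 162 ± 3.34 in shCtrl (SD, n = 2 each). ID1 was next, at 133 ± 2.59 RPKM in shCtrl, followed by ID2 at 39.5 ± 0.998, ID3 at 31.6 ± 0.198, BAMBI at 14.4 ± 0.138 and TGFBR1 at 10.6 ± 0.456. SMAD7 at 6.09 ± 0.342 RPKM, SKIL at 4.96 ± 0.0991, ACVR2B at 3.19 ± 0.190 and SMAD6 at 2.28 ± 0.0909 closed the order in shCtrl. In shSETD2 ACVR2B, at 4.61 ± 0.0160 RPKM, stood above SKIL, at 4.23 ± 0.0337 RPKM.

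**Figure D1:**
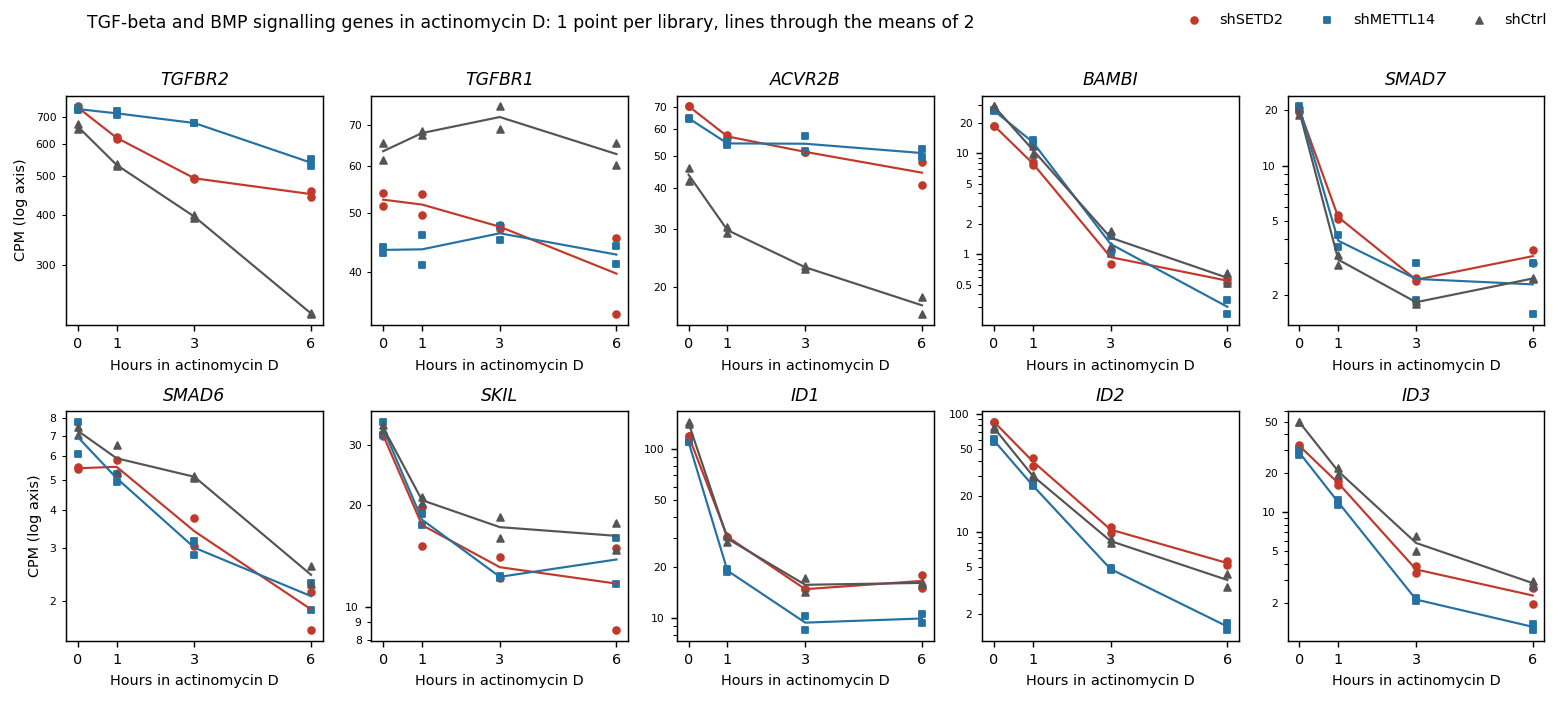
CPM on a log axis against hours in actinomycin D for the 10 genes, with 1 point per library and lines through the means of the 2 libraries of shSETD2, shMETTL14 and shCtrl. TGFBR2 and ACVR2B stayed higher in both knockdown lines than in shCtrl, BAMBI and the ID genes fell steeply in all 3 lines, and TGFBR1 changed least.

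A pair of short motifs is shown because both are known to bear on RNA stability: the pentamer ATTTA of AU-rich elements, and GGACT, the most common form of the m6A consensus. Both were searched on the transcript strand only, in 1 principal GENCODE 29 transcript per gene on GRCh38, for 12477 genes past the filter on low counts, the 10 members among them. The 3′UTR of BAMBI, of 538 bases, holds 5 ATTTA pentamers, or 9.29 per kb, against a median of 1.53 per kb over all genes, and 1.48% of genes had a higher density. SKIL had 5.21, SMAD6 4.57 and ID2 3.87 pentamers per kb. ID1 and ID3 had 1 pentamer each in short 3′UTRs, or 2.38 and 1.91 per kb, and TGFBR2 1 in 2535 bases, or 0.394 per kb. The nonamer TTATTTATT, found in the 3′UTR of 8.26% of genes, was in the 3′UTR of none of the 10 members. The stretch of 30 bases with the most pentamers is shown for the 4 members with the shortest half-lives in the authors' deposited table, with ATTTA in capitals.
BAMBI, chr10:28682719-28682748, plus strand, 3′UTR: atcttgATTTAttgtaaagATTTAaaagaa
ID2, chr2:8683874-8683903, plus strand, 3′UTR: tgtgatattcgttATTTAtgaaaaagactt
ID3, chr1:23558049-23558078, minus strand, 3′UTR: ttctgttgccctgATTTAtgaactctataa
ID1, chr20:31606486-31606515, plus strand, 3′UTR: tattaaacaaataATTTAgatggtggtaaa

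GGACT occurs in the transcript of 91.7% of genes and of every member except ID1. ID3 had it more densely than all but 4.50% of genes, and the densities in TGFBR2, ACVR2B, BAMBI and ID2 were each above those of 52.2% to 58.3% of genes. The copy nearest the stop codon is shown for TGFBR2, ACVR2B and ID2, whose decay in the 3 lines is compared further on, with the motif in capitals. In ACVR2B its A lies 67 bases before the end of the stop codon and in ID2 166 bases before it, both in coding sequence, and in TGFBR2 it lies 693 bases after it. Whether any of these adenosines is methylated in HepG2 was not measured here, and a match is a description of the letters.
ACVR2B, chr3:38483251-38483280, plus strand, coding: cggcactacctcGGACTgtctcgtttccct
TGFBR2, chr3:30692278-30692307, plus strand, 3′UTR: cttatttctcctGGACTtttcatttaagct
ID2, chr2:8682390-8682419, plus strand, coding: gcagatcgccctGGACTcgcatcccactat

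Before the drug, the receptors of the pathway did not move together. TGFBR2 and ACVR2B were higher in both knockdown lines than in shCtrl, and TGFBR1 was lower in both. Adjusted p-values are from edgeR's quasi-likelihood test over 14887 genes, with Benjamini-Hochberg adjustment and a threshold of 0.05. Of the 10 members, 2 were higher and 5 lower in shSETD2, where 21.6% of all tested genes were higher and 18.9% lower. In shMETTL14, 2 were higher and 4 lower, against 23.1% and 25.1% of all tested genes. The median log2 difference of the 10 was -0.16 in shSETD2 and -0.10 in shMETTL14, and that of all tested genes was 0.02 and -0.01. Both comparisons use the same shCtrl libraries.

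TGFBR2 (ENSG00000163513, chr3:30647994-30735634, plus strand, GRCh37) encodes the type II receptor that binds TGF-beta ligands. At 0 h it had 735 and 746 CPM in shSETD2, 737 and 730 CPM in shMETTL14, and 675 and 653 CPM in shCtrl. Both libraries of each knockdown line lay above both shCtrl libraries, and the knockdown lines overlapped each other. The log2 difference from shCtrl was 0.16 ± 0.04 (SE) in shSETD2 (adjusted p = 0.00162) and 0.14 ± 0.04 in shMETTL14 (adjusted p = 0.00289). These small differences depend on the scaling: with library size alone the value in shSETD2 was 0.00191 (adjusted p = 0.973), where the median of all genes was -0.14, against 0.02. The shSETD2 call was also lost with limma on RPKM and with GC trends removed (0.06, adjusted p = 0.0618). Relative to the median of all genes, TGFBR2 stood 0.14 higher in shSETD2 and 0.15 higher in shMETTL14. A change of scaling shifts all genes of a library alike. These relative values are therefore nearly the same under each of the 3 scalings by construction, which is no check of the difference. The shMETTL14 call was lost with RLE size factors (0.09, adjusted p = 0.0517). Both calls were also lost when any of the 4 libraries of shMETTL14 and shCtrl at 0 h was left out, with values down to 0.04 in shSETD2 and 0.02 in shMETTL14.

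In actinomycin D the lines separated. TGFBR2 had 626 and 618, then 491 and 494, then 442 and 458 CPM at 1, 3 and 6 h in shSETD2. In shMETTL14 it had 708 and 723, then 677 and 677, then 529 and 549 CPM, and in shCtrl 529 and 535, then 392.2 and 398.4, then 226 and 228 CPM. At every time in the drug both libraries of shMETTL14 were highest, both of shSETD2 between and both of shCtrl lowest. After 6 h, 60.8% of the 0 h CPM was left in shSETD2 and 73.5% in shMETTL14, against 34.2% in shCtrl. By then the CPM in shSETD2 was 199% of that in shCtrl and the CPM in shMETTL14 238%. The share left depends on the scaling, and in RPKM, scaled to the library total alone, each line fell further. Means at 0 and 6 h were 162 and 80.4 RPKM in shSETD2, 186 and 100.5 in shMETTL14, and 162 and 43.3 in shCtrl. The slope over the 4 times was -0.12 log2 per hour in shSETD2 and -0.07 in shMETTL14, against -0.25 in shCtrl. Replicates 1 and 2 alone gave -0.12 and -0.11 in shSETD2, -0.08 and -0.07 in shMETTL14, and -0.26 and -0.25 in shCtrl. These slopes join libraries over the times by replicate number only, so they are no replicates of a slope. TGFBR2 was chosen for its decay, so the order of the lines is a description and no test. In the authors' deposited table its half-life was 4.05 h in shSETD2 and 4.93 h in shMETTL14, against 3.09 h in shCtrl. Those are the values that led to its choice.

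ACVR2B (ENSG00000114739, chr3:38495342-38534633, plus strand, GRCh37), a type II receptor for activins and some BMPs, was likewise higher in both knockdown lines than in shCtrl, and here the differences in decay could be tested. At 0 h it had 70.5 and 70.6 CPM in shSETD2, 65.1 and 64.5 CPM in shMETTL14, and 45.7 and 41.8 CPM in shCtrl. Both libraries of each knockdown line lay above both of shCtrl. It rose by 0.69 ± 0.07 (SE) on the log2 scale in shSETD2 (adjusted p = 3.53e-08) and by 0.57 ± 0.07 in shMETTL14 (adjusted p = 5.42e-07), the largest increases among the members. The knockdown lines differed from each other by 0.12 (adjusted p = 0.140), and by -0.09 with library size alone. At 6 h it had 40.8 and 47.9 CPM in shSETD2, 49.5 and 52.3 CPM in shMETTL14, and 16.5 and 18.7 CPM in shCtrl. The share of the 0 h CPM left was 62.9% in shSETD2 and 78.5% in shMETTL14, against 40.2% in shCtrl. In RPKM each line fell further. Means at 0 and 6 h were 4.61 and 2.37 RPKM in shSETD2, 4.90 and 2.83 in shMETTL14, and 3.19 and 1.01 in shCtrl.

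The slope of ACVR2B was -0.10 ± 0.01 log2 per hour in shSETD2 and -0.05 ± 0.01 in shMETTL14, against -0.20 ± 0.01 in shCtrl. The difference from shCtrl was 0.10 ± 0.02 for shSETD2 (adjusted p = 0.000854) and 0.16 ± 0.02 for shMETTL14 (adjusted p = 3.30e-06). With any 1 library left out, it ran from 0.08 to 0.14 in shSETD2 and from 0.14 to 0.19 in shMETTL14. Left out one at a time, the libraries of shSETD2 at 6 h gave 0.12 (without replicate 1) and 0.08 (without replicate 2), both still called. The authors' deposited table gives a half-life of 4.26 h in shSETD2 and 5.75 h in shMETTL14, against 3.74 h in shCtrl. These are 1.14 and 1.54 times the shCtrl value, from a fit that is not described in the sources used here. The locus overlaps an antisense gene, ACVR2B-AS1, with a mean count of 81 per library. The sources used here do not give whether counting used strand, so reads of the pair cannot be told apart.

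TGFBR1 (ENSG00000106799, chr9:101866320-101916474, plus strand, GRCh37), the type I receptor that TGFBR2 activates, went the other way before the drug. At 0 h it had 54.0 and 51.4 CPM in shSETD2, 42.9 and 44.1 CPM in shMETTL14, and 65.5 and 61.4 CPM in shCtrl, with both libraries of each knockdown line below both of shCtrl. It fell by 0.27 on the log2 scale in shSETD2 (SE 0.09, adjusted p = 0.0174) and by 0.54 in shMETTL14 (SE 0.09, adjusted p = 2.05e-05). Without replicate 2 of shSETD2 at 0 h, the shSETD2 difference was -0.23 and no longer passed (adjusted p = 0.120), and without replicate 2 of shCtrl at 0 h it was -0.40.

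Among the members TGFBR1 kept the largest share of its 0 h level at 6 h in every line. At 6 h it had 34.0 and 45.5 CPM in shSETD2, 41.2 and 44.2 CPM in shMETTL14, and 60.1 and 65.4 CPM in shCtrl, or 75.4%, 98.2% and 98.9% of the 0 h level. The slope was called in shSETD2, at -0.07 ± 0.01 log2 per hour (adjusted p = 0.000161), and not in shMETTL14 (-0.0025) or shCtrl (-0.0054). With each library's trend with GC content removed, the slopes were 0.01 in shSETD2, 0.04 in shMETTL14 and 0.03 in shCtrl, with the values in shMETTL14 and shCtrl called as rises, and with library size alone the values in shMETTL14 (-0.07) and shCtrl (-0.06) were called as falls, so the direction depends on the processing. Over 0, 1 and 3 h the slope was 0.06 in shCtrl (adjusted p = 0.0686). The slope difference of shSETD2 from shCtrl, -0.07 ± 0.02 (adjusted p = 0.0469), passed in 3 of 10 other settings and in 3 of 24 fits with 1 library left out. It was -0.03 without replicate 1 of shSETD2 at 6 h and -0.10 without replicate 2, and between -0.03 and -0.04 without any 1 of the 4 libraries of shMETTL14 and shCtrl at 0 h. The half-life in the authors' deposited table was 4.84 h in shSETD2 and 7.66 h in shMETTL14, against 13.7 h in shCtrl.

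**Figure D2:**
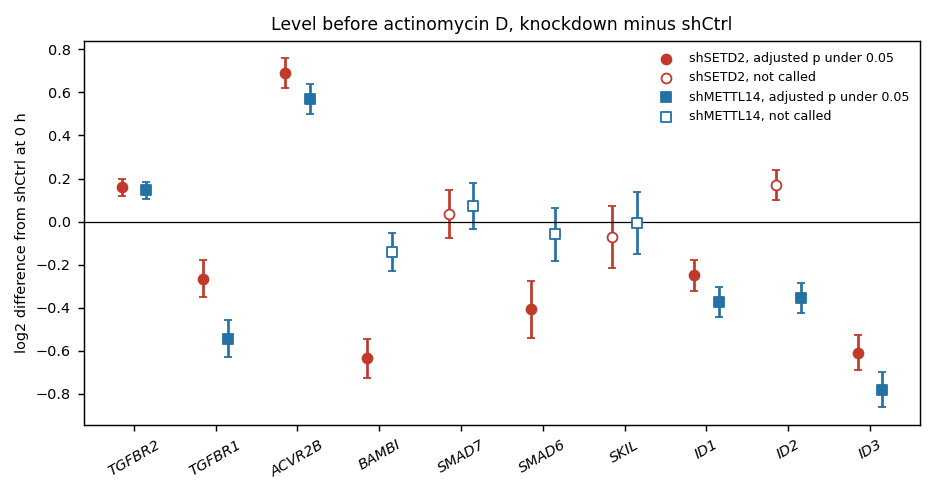
Log2 difference from shCtrl at 0 h for each of the 10 genes, with bars of 1 SE. Circles are shSETD2 and squares shMETTL14, and filled marks passed an adjusted p of 0.05. ACVR2B stood highest in both lines, at 0.69 and 0.57, and ID3 was among the lowest in both, at -0.61 and -0.78.

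Among the inhibitors, only BAMBI and SMAD6 differed from shCtrl before the drug, both in shSETD2 alone by this threshold and both also lower than in shMETTL14. BAMBI (ENSG00000095739, chr10:28966271-28971868, plus strand, GRCh37) is a pseudoreceptor that resembles type I receptors but lacks the kinase domain. It had 18.7 CPM in both shSETD2 libraries, 26.71 and 25.996 CPM in shMETTL14, and 28.9 and 29.2 CPM in shCtrl. It fell by 0.64 on the log2 scale in shSETD2 (SE 0.09, adjusted p = 5.89e-06), and its value in shMETTL14 was -0.14 ± 0.09 (adjusted p = 0.192). Directly compared, shSETD2 was 0.49 lower than shMETTL14, a log2 difference of -0.49 ± 0.09 (adjusted p = 8.52e-05).

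BAMBI was all but gone after 6 h in every line. It had 7.68 and 8.10, then 0.794 and 1.07, then 0.573 and 0.522 CPM at 1, 3 and 6 h in shSETD2. In shMETTL14 it had 12.2 and 13.4, then 1.00 and 1.52, then 0.254 and 0.350 CPM, and in shCtrl 9.79 and 11.7, then 1.204 and 1.709, then 0.518 and 0.651 CPM. The share left at 6 h was 2.93% in shSETD2, 1.15% in shMETTL14 and 2.01% in shCtrl. Those levels rest on 5 to 11 counts per library, so their counting error is large. The slope was -0.86 log2 per hour in shSETD2, -1.10 in shMETTL14 and -0.94 in shCtrl. Over 0, 1 and 3 h alone, its difference between shSETD2 and shCtrl was -0.01, against 0.08 over all 4 times. In the authors' deposited table the half-life was 1.01 h in shSETD2, 0.817 h in shMETTL14 and 0.998 h in shCtrl. The shMETTL14 value is the shortest of 7772 genes in that line, and 5 genes were shorter in shSETD2 and 1 in shCtrl.

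SMAD7 (ENSG00000101665, chr18:46446223-46477081, minus strand, GRCh37), an inhibitory SMAD that blocks type I receptors, had 20.5 and 19.6 CPM at 0 h in shSETD2, 20.22 and 21.02 CPM in shMETTL14, and 20.4 and 18.8 CPM in shCtrl. The lines overlapped. After 1 h it had 5.153 and 5.397 CPM in shSETD2, 3.65 and 4.22 CPM in shMETTL14, and 2.91 and 3.31 CPM in shCtrl, or 26.3%, 19.1% and 15.9% of the 0 h level. It fell by 1.93 (SE 0.13, adjusted p = 1.10e-10), 2.39 (SE 0.13, adjusted p = 4.44e-12) and 2.65 (SE 0.14, adjusted p = 2.24e-12) on the log2 scale in shSETD2, shMETTL14 and shCtrl. In each line most of the loss came in the first hour. At 6 h 16.2% was left in shSETD2 and 11.1% in shMETTL14, against 12.5% in shCtrl, and the slopes of -0.37, -0.43 and -0.39 log2 per hour understate that early fall.

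SMAD6 (ENSG00000137834, chr15:66994566-67074338, plus strand, GRCh37), the inhibitory SMAD that acts mainly on BMP signals, was the least abundant member. It had 5.52 and 5.44 CPM at 0 h in shSETD2, 7.80 and 6.10 CPM in shMETTL14, and 7.51 and 7.07 CPM in shCtrl. It fell by 0.41 on the log2 scale in shSETD2 (SE 0.13, adjusted p = 0.0165), a call lost when either shSETD2 library at 0 h was left out (adjusted p = 0.0730 and 0.0736). The value in shMETTL14 was -0.06 ± 0.13 (adjusted p = 0.718). After 6 h 34.3% was left in shSETD2 and 29.9% in shMETTL14, against 33.5% in shCtrl, with slopes of -0.28, -0.29 and -0.25 log2 per hour. After 1 h the level in shSETD2 was 101% of that at 0 h.

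SKIL (ENSG00000136603, chr3:170075466-170114623, plus strand, GRCh37), a nuclear repressor of SMAD complexes, had 31.8 to 35.0 CPM at 0 h across all 6 libraries, and neither knockdown line differed from shCtrl past the threshold (log2 -0.07 in shSETD2 and -0.01 in shMETTL14). It fell by 0.89 on the log2 scale in 1 h in both knockdown lines and by 0.71 in shCtrl (adjusted p = 0.000220, 0.000121 and 0.00134). At 3 h 40.9% was left in shSETD2 and 36.6% in shMETTL14, against 50.9% in shCtrl, and at 6 h 36.6% and 41.1%, against 48.0%. The 2 libraries of shSETD2 at 6 h held 8.54 and 14.9 CPM. The slope difference of shSETD2 from shCtrl was -0.06 ± 0.04 (adjusted p = 0.356), -0.0013 without replicate 1 at 6 h and -0.13 without replicate 2, where it passed (adjusted p = 0.00831). The half-lives in the authors' deposited table were 2.83 h in shSETD2 and 3.28 h in shMETTL14, against 4.69 h in shCtrl.

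The ID genes, which encode proteins that bind basic helix-loop-helix factors and keep them off DNA, were mostly lower in the knockdown lines before the drug. ID1 (ENSG00000125968, chr20:30193086-30194318, plus strand, GRCh37) had 120.4 and 120.3 CPM in shSETD2, 110.3 and 111 CPM in shMETTL14, and 145 and 141 CPM in shCtrl. It fell by 0.25 on the log2 scale in shSETD2 (SE 0.07, adjusted p = 0.00637) and by 0.37 in shMETTL14 (SE 0.07, adjusted p = 0.000139). The knockdown lines differed from each other by 0.12 (adjusted p = 0.155). That value was -0.09 with library size alone and 0.29, then called, with GC trends removed.

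ID3 (ENSG00000117318, chr1:23884409-23886285, minus strand, GRCh37) showed the largest fall of the 3. It had 31.9 and 33.1 CPM in shSETD2, 29.99 and 27.65 CPM in shMETTL14, and 49.9 and 49.3 CPM in shCtrl. It fell by 0.61 on the log2 scale in shSETD2 (SE 0.08, adjusted p = 2.70e-06) and by 0.78 in shMETTL14 (SE 0.08, adjusted p = 5.66e-08). Both knockdown lines lay well below shCtrl, and the value of shSETD2 minus shMETTL14 was 0.17 ± 0.08 (adjusted p = 0.0926).

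ID2 (ENSG00000115738, chr2:8818975-8824583, plus strand, GRCh37) separated the knockdown lines from each other. It had 85.6 and 85.4 CPM in shSETD2, 57.7 and 61.1 CPM in shMETTL14, and 77.5 and 74.5 CPM in shCtrl. It fell by 0.36 on the log2 scale in shMETTL14 (SE 0.07, adjusted p = 0.000265), and its value in shSETD2 was 0.17 ± 0.07 (adjusted p = 0.0611). The shSETD2 value passed in 4 of 9 other settings, over which it ran from 0.012 to 0.177, and in 4 of 24 fits with 1 library left out, the lowest being 0.05 without replicate 2 of shCtrl at 0 h. Compared directly, shSETD2 was higher than shMETTL14 by 0.53 ± 0.07 (adjusted p = 1.83e-06). A minus-strand gene, AC011747.7, overlaps ID2 with a mean count of 15 per library, and its reads cannot be told apart from those of ID2.

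Between the knockdown lines at 0 h, 2 of 10 members were higher in shSETD2 than in shMETTL14, ID2 and TGFBR1, where 29.2% of all tested genes were higher. BAMBI and SMAD6 were lower, where 23.01% of tested genes were. With library size alone the split of all calls was 2330 higher and 5787 lower, against 4342 and 3425. TGFBR1 differed by 0.28 ± 0.09 (adjusted p = 0.0110), a call lost without replicate 1 of shSETD2 or replicate 1 of shMETTL14 at 0 h (adjusted p = 0.0907 and 0.0648) and with library size alone (0.07) or limma on RPKM (0.06, adjusted p = 0.581). SMAD6 differed by -0.35 ± 0.13 (adjusted p = 0.0298), lost without either shSETD2 library or replicate 1 of shMETTL14, where it was -0.15, with DESeq2, and with GC trends removed (-0.17).

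The first hour of actinomycin D removed much of the RNA of SMAD7, BAMBI, SKIL and the ID genes in every line. TGFBR2, ACVR2B and SMAD6 lost less, and TGFBR1 stood at 98.1% of its 0 h level in shSETD2 and 107% in shCtrl. Of the 8 members tested, 6 fell in shSETD2, 7 in shMETTL14 and 6 in shCtrl, and none rose. Among all tested genes 16.1% were lower and 12.6% higher after 1 h in shSETD2, 16.02% and 23.1% in shMETTL14, and 15.9% and 13.8% in shCtrl. With library size alone the calls leaned further down, with 1228 higher and 2746 lower in shSETD2, against 1883 and 2403, 1390 and 3537 in shMETTL14, against 3439 and 2385, and 1044 and 2937 in shCtrl, against 2047 and 2374. The median log2 change of the 8 was -0.92 in shSETD2 and -1.08 in shMETTL14, against -0.98 in shCtrl, and that of all tested genes was 0.01, 0.06 and 0.02 in the same order. TGFBR1 fell in no line past the threshold, and SMAD6 fell in shMETTL14 (log2 -0.46 ± 0.13, adjusted p = 0.00832), a call lost without replicate 1 of shMETTL14 at 0 h (-0.29) or at 1 h (-0.42). Its value in shCtrl was -0.29 (adjusted p = 0.0971) and passed in 3 of 9 other settings, and the difference of shMETTL14 from shCtrl was -0.17 ± 0.19 (adjusted p = 0.847).

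ID1 and SMAD7 were the members that lost most in the first hour in every line. ID1 had 30.4 and 30.3 CPM after 1 h in shSETD2, 19.5 and 18.8 CPM in shMETTL14, and 28.4 and 30.8 CPM in shCtrl, or 25.2%, 17.3% and 20.7% of the 0 h level. It fell by 1.99 (SE 0.08, adjusted p = 7.97e-15), 2.53 (SE 0.08, adjusted p = 1.61e-16) and 2.27 (SE 0.08, adjusted p = 1.02e-15) on the log2 scale in shSETD2, shMETTL14 and shCtrl. After that it levelled off, with 18.1 and 15.2 CPM at 6 h in shSETD2, 10.6 and 9.39 CPM in shMETTL14, and 15.9 and 16.5 CPM in shCtrl.

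ID2 and ID3 fell more steadily. ID3 kept 51.5% after 1 h in shSETD2 and 41.3% in shMETTL14, against 41.7% in shCtrl, and 6.98%, 4.51% and 5.70% after 6 h. ID2 had 36.4 and 42.6 CPM after 1 h in shSETD2, 24.7 and 24.6 CPM in shMETTL14, and 30.2 and 29.4 CPM in shCtrl. By 6 h it had 5.62 and 5.28 CPM in shSETD2, 1.47 and 1.69 CPM in shMETTL14, and 4.41 and 3.43 CPM in shCtrl. The shMETTL14 libraries were the lowest at every time, and the gap to shCtrl widened: the level was 78.1% of shCtrl at 0 h and 40.4% at 6 h.

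The change over the first hour did not differ between a knockdown line and shCtrl past the threshold for any of the 8 members. The largest such value in shSETD2 was that of SMAD7, 0.72 ± 0.20 (adjusted p = 0.464), and in shMETTL14 that of ACVR2B, 0.30 ± 0.10 (adjusted p = 0.435). At an unadjusted p under 0.05, edgeR had 5 of 8 members in shSETD2 and 2 of 8 in shMETTL14. The share of all tested genes at that unadjusted threshold was not counted, so these counts have no background beside them. DESeq2, limma voom and limma on RPKM each had 0 after adjustment in both lines. Few genes of any kind passed after adjustment: 0.0202% of all tested genes were higher and 0.0269% lower in shSETD2, and 0.0537% higher and 0.0537% lower in shMETTL14. With library size alone 3 genes were higher and 1 lower in shSETD2, against 3 and 4, and 2 higher and 11 lower in shMETTL14, against 8 and 8. For TGFBR2, not tested, the change in the first hour was -0.25 in shSETD2 and -0.04 in shMETTL14, against -0.32 in shCtrl.

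Over the full 6 h, all 8 members tested had a falling slope in shSETD2, and 7 of 8 in shMETTL14 and in shCtrl, TGFBR1 being the exception. Relative to other RNA, 36.2% of all tested genes fell and 34.2% rose in shSETD2, 34.8% and 38.2% in shMETTL14, and 33.2% and 37.8% in shCtrl. With library size alone 3247 rose and 6945 fell in shSETD2, against 5098 and 5386, 3050 and 7432 in shMETTL14, against 5693 and 5182, and 3360 and 6788 in shCtrl, against 5632 and 4947. The median slope of the 8 was -0.32 log2 per hour in shSETD2 and -0.36 in shMETTL14, against -0.32 in shCtrl. After BAMBI, ID2 had the steepest slope in each line, at -0.65 ± 0.02 log2 per hour in shSETD2, -0.87 ± 0.02 in shMETTL14 and -0.69 ± 0.02 in shCtrl. ID3 followed, at -0.65 ± 0.02, -0.74 ± 0.02 and -0.67 ± 0.02 in the same order, then ID1 at -0.40 ± 0.01, -0.48 ± 0.01 and -0.44 ± 0.01. In shSETD2 and shCtrl the slopes of ID2 and ID3 differed by less than the sum of their SEs.

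**Figure D3:**
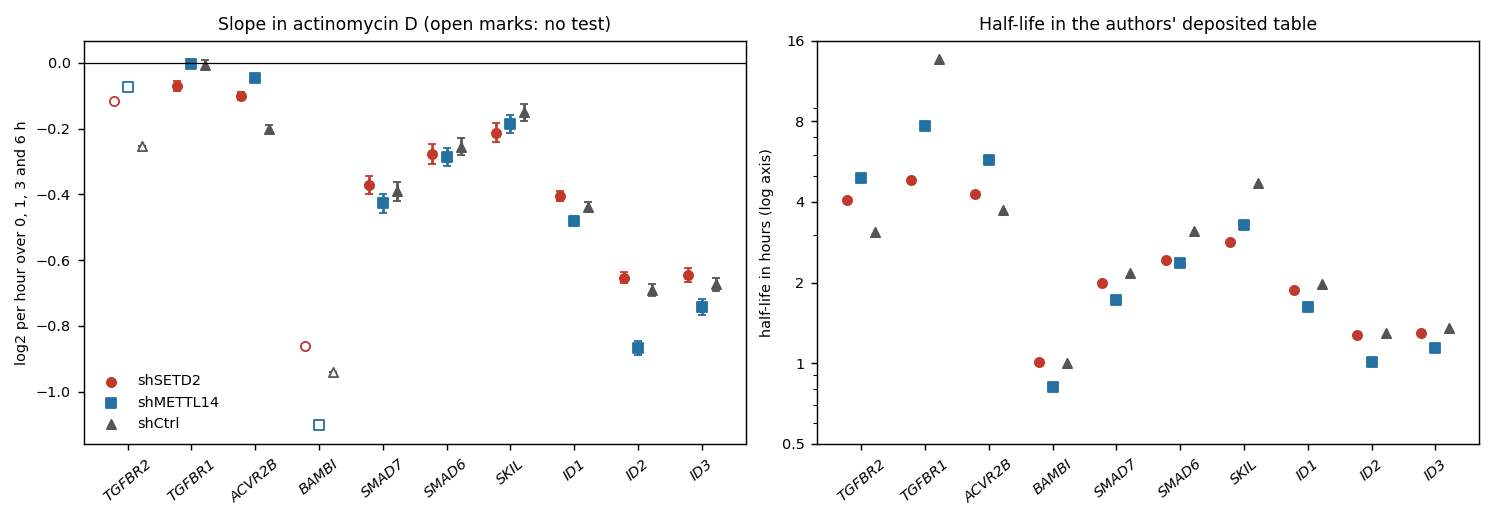
Left, slope over 0, 1, 3 and 6 h in log2 per hour with bars of 1 SE for shSETD2, shMETTL14 and shCtrl, with open marks for TGFBR2 and BAMBI, which were not tested. Right, the half-life in hours on a log axis from the authors' deposited table. In TGFBR2 and ACVR2B both knockdown lines lie above shCtrl in both panels, and ID2 in shMETTL14 lies apart at -0.87.

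The test of the slope difference itself singled out few members. In shSETD2, 1 of 8 was higher (ACVR2B) and 1 lower (TGFBR1), where 1.49% of all tested genes were higher and 6.45% lower. In shMETTL14, 1 of 8 was higher (ACVR2B) and 1 lower (ID2), where 1.85% were higher and 3.35% lower. With RLE size factors in place of TMM the split of all calls was 463 higher and 294 lower in shSETD2, against 222 and 960, and 360 and 380 in shMETTL14, against 276 and 499. With library size alone it was 273 and 487 in shSETD2, and 175 and 1047 in shMETTL14. The ACVR2B calls were kept under both scalings. ID2 fell faster in shMETTL14 than in shCtrl by 0.18 log2 per hour, a difference of -0.18 ± 0.03 (adjusted p = 0.00243). That call was lost over 0, 1 and 3 h alone (-0.16, adjusted p = 0.107) and without replicate 1 of shCtrl at 6 h (-0.14, adjusted p = 0.0540). No other member reached the threshold, and the values of ID1 (0.03 and -0.04 in shSETD2 and shMETTL14), ID3 (0.03 and -0.07) and SMAD7 (0.02 and -0.04) had adjusted p-values of 0.296 and above.

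In the authors' deposited table the half-life of ID2 was 1.27 h in shSETD2 and 1.01 h in shMETTL14, against 1.29 h in shCtrl, and that of ID3 was 1.30 h and 1.14 h, against 1.35 h. ID1 was listed at 1.88 h in shSETD2 and 1.63 h in shMETTL14, against 1.97 h in shCtrl. Of the inhibitors in the authors' deposited table, SMAD7 stood at 2.00 h and 1.72 h, against 2.17 h, and SMAD6 at 2.44 h and 2.36 h, against 3.13 h. The medians of the 7772 genes in that table were 4.13 h in shSETD2 and 4.31 h in shMETTL14, against 6.02 h in shCtrl. TGFBR2 and ACVR2B had longer half-lives in both knockdown lines than in shCtrl, while the medians of the table were shorter. The authors' table holds mostly genes that fell. The slope of log2 RPKM over the 4 times was negative in all 3 lines for 92.5% of checked genes in it. Of those outside it, the same held for 9.54%.

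A list of 86 other genes of the pathway, of which 66 passed the filter on low counts, was counted beside the members. In shSETD2 at 0 h, 14 rose and 28 fell, with a median log2 difference of -0.13, where 21.6% of all tested genes rose and 18.9% fell. In shMETTL14, 28 rose and 12 fell, with a median of 0.11, where 23.1% and 25.1% of all tested genes did. Between the knockdown lines 17 were higher and 29 lower in shSETD2 than in shMETTL14, against 29.2% and 23.01% of all tested genes. The counts of the role lists that follow stand against the same shares. With library size alone, all tested genes split into 2010 higher and 5103 lower in shSETD2, against 3221 and 2820.

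Of 14 ligands tested, 3 rose and 5 fell in shSETD2, and 7 rose and 2 fell in shMETTL14. INHBC, an inhibin subunit made in liver, rose in both lines, by 1.65 (adjusted p = 1.57e-09) and 1.51 (adjusted p = 6.25e-09) on the log2 scale. TGFB1 fell by 1.02 in shSETD2 (adjusted p = 1.68e-09), with 30.9 ± 0.817 CPM in shSETD2 and 62.8 ± 0.837 CPM in shCtrl (SD, n = 2 each), and INHBB, an activin subunit, fell by 0.99 (adjusted p = 2.45e-08). INHBE, another inhibin subunit made in liver, fell by 1.69 in shMETTL14 (adjusted p = 8.26e-12). BMP4 rose by 0.55 in shMETTL14 (adjusted p = 1.31e-07), with 141 CPM in shMETTL14 on average and 95.8 CPM in shCtrl.

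Of 10 further receptors and co-receptors, 2 rose and 3 fell in shSETD2, and 7 rose and 1 fell in shMETTL14. BMPR2, the type II receptor for BMPs, fell by 0.39 in shSETD2 (adjusted p = 0.000433) and rose by 0.46 in shMETTL14 (adjusted p = 4.29e-05). In shSETD2 TGFBR3, the co-receptor betaglycan, fell by 0.27 (adjusted p = 9.42e-05), and ACVR1C, a type I receptor, rose by 1.96 at a low level (adjusted p = 0.000210), with 0.941 ± 0.107 CPM in shSETD2 and 0.244 ± 0.102 CPM in shCtrl (SD, n = 2 each). In shMETTL14 AMHR2, the type II receptor of anti-Müllerian hormone, rose by 1.27 (adjusted p = 0.000191), with 2.05 CPM in shMETTL14 on average and 0.859 CPM in shCtrl, and BMPR1A, a type I receptor for BMPs, fell by 0.41 (adjusted p = 0.00181). Of the 6 receptor-regulated and common SMADs, 1 rose and 2 fell in shSETD2, and 1 rose and 3 fell in shMETTL14. SMAD5, which carries BMP signals, fell by 0.50 in shSETD2 (adjusted p = 0.000774) and by 0.41 in shMETTL14 (adjusted p = 0.00311), and SMAD3, which carries TGF-beta signals, fell by 0.22 in shSETD2 (adjusted p = 0.00609) and rose by 0.39 in shMETTL14 (adjusted p = 1.30e-05). SMAD4, the common SMAD, rose by 0.28 in shSETD2 (adjusted p = 0.00160), and SMAD9 fell by 0.28 in shMETTL14 (adjusted p = 0.0105).

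Of 19 further inhibitors and modulators, 3 rose and 10 fell in shSETD2, and 8 rose and 3 fell in shMETTL14. FST, which encodes the activin-binding follistatin, rose in both, by 0.84 (adjusted p = 5.49e-11) and 1.66 (adjusted p = 5.09e-16). FSTL3, a follistatin relative, fell by 1.66 in shSETD2 (adjusted p = 9.53e-12), as did TGIF1, a repressor of SMAD-driven transcription, by 0.55 (adjusted p = 2.07e-06). In shMETTL14 STRAP fell by 0.78 (adjusted p = 3.18e-11) and LTBP2 rose by 2.23 (adjusted p = 5.06e-11), with 8.32 CPM in shMETTL14 on average and 1.78 CPM in shCtrl. Of 17 further target genes, 5 rose and 8 fell in shSETD2, and 5 rose and 3 fell in shMETTL14. THBS1, whose product activates latent TGF-beta, fell by 0.93 in shSETD2 (adjusted p = 9.30e-15) and by 1.32 in shMETTL14 (adjusted p = 3.87e-17), whereas in shSETD2 CTGF rose by 0.93 (adjusted p = 4.80e-13) and the collagen gene COL1A1 by 1.03 (adjusted p = 1.20e-07). In shMETTL14 the fibronectin gene FN1 rose by 0.47 (adjusted p = 7.06e-10) and CDKN2B, which encodes an inhibitor of cell cycle kinases, by 1.19 (adjusted p = 1.85e-09).

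**Figure D4:**
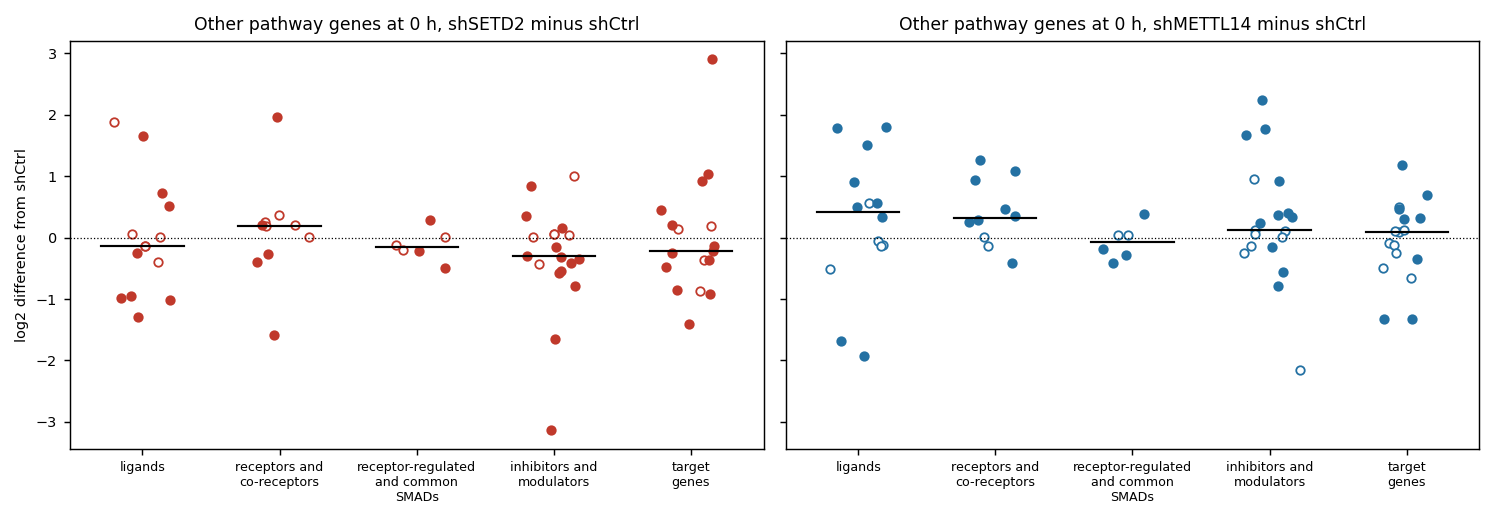
Log2 difference from shCtrl at 0 h for the 66 other pathway genes by role, for shSETD2 on the left and shMETTL14 on the right. Each point is a gene, filled marks passed an adjusted p of 0.05, and black lines are medians, at 0.42 for the ligands in shMETTL14 and -0.30 for the inhibitors and modulators in shSETD2.

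In the drug, 26 of the 66 fell and 8 rose within 1 h in shSETD2, 20 fell and 15 rose in shMETTL14, and 20 fell and 7 rose in shCtrl. Of all tested genes 16.1% fell and 12.6% rose in shSETD2, 16.02% and 23.1% in shMETTL14, and 15.9% and 13.8% in shCtrl. Over 6 h, 34 fell and 18 rose in shSETD2, 34 fell and 22 rose in shMETTL14, and 35 fell and 16 rose in shCtrl, where 36.2% of all tested genes fell and 34.2% rose in shSETD2, 34.8% and 38.2% in shMETTL14, and 33.2% and 37.8% in shCtrl. All 6 receptor-regulated and common SMADs fell in every line, SMAD4 by 0.35 log2 per hour in shSETD2, 0.33 in shMETTL14 and 0.27 in shCtrl. Of 10 receptors, 7 fell and 1 rose in each line. The slope differed from shCtrl for 9 of the 66 in shSETD2, 1 upward and 8 downward, and for 14 in shMETTL14, 4 upward and 10 downward. Of all tested genes 1.49% differed upward and 6.45% downward in shSETD2, and 1.85% and 3.35% in shMETTL14. CTGF fell faster in both knockdown lines, by 0.17 log2 per hour in shSETD2 (adjusted p = 3.54e-09) and by 0.28 in shMETTL14 (adjusted p = 1.85e-12), and CYR61, like CTGF a matricellular target, by 0.44 in shMETTL14 (adjusted p = 6.13e-11).

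Of the 10 other receptors, 0 had a higher slope in shSETD2 than in shCtrl and 0 in shMETTL14, where 1.49% and 1.85% of all tested genes did. In shMETTL14 3 of them had a lower slope, led by BMPR1A at -0.15 log2 per hour (adjusted p = 0.00391). In shSETD2 1 did, TGFBR3, at -0.04 (adjusted p = 0.0305). The first-hour change differed from shCtrl for 3 of the 66 in shMETTL14, all target genes, of which CTGF was lower by 0.48 (adjusted p = 0.00323), where 0.0537% of all tested genes were higher and 0.0537% lower. In shSETD2 it did for 0 of 66 by edgeR, with 6 at an unadjusted p under 0.05, 1 by DESeq2, and 0 by limma voom and by limma on RPKM. The share of all tested genes at the unadjusted threshold was not counted.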

How the data were processed

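RNA of 24 HepG2 libraries was sequenced. The authors deposited gene-level count values and RPKM values in one table, and half-lives in hours in another. Cutadapt, TopHat and HTSeq 0.6.1p1 were used with GRCh37, per the submitters' processing notes. The sources used here do not give whether counting used strand. ERCC RNA was added to the samples per the labels' protocols, and the table used here holds 0 ERCC entries. The deposited RPKM values equal count per exon length and library total. Each value column was mapped to its sample by name, which left 0 unmapped.

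Counts were fitted with edgeR 4.0.16 (R 4.3.3; TMM, filterByExpr, robust quasi-likelihood F test, two-sided, Benjamini-Hochberg at 0.05) in 1 model of 12 groups with 12 residual degrees of freedom. The filter kept 14887 genes, all 10 members among them, and the biological coefficient of variation was 5.04%. The script was tested on simulated data. CPM are scaled by TMM, and all shares of the 0 h level come from these CPM and depend on that scaling. The slope is the least-squares slope of group means on hours. Alternatives were RLE factors, library size alone, other filters, DESeq2 1.42.0, limma 3.58.1 (voom, and trend on log2(RPKM + 1)), a replicate block, a shorter slope, each library left out and, chosen after seeing the data, removal of GC trends.

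The series' design text calls the 2 libraries of a group biological replicates. How cultures were kept apart is not given, so p-values measure the spread between these libraries, which may be technical. Replicate numbers were taken from the titles, and the main fit did not pair libraries by them. The members and the lists were chosen with earlier results of these data known. All 10 members are named, and of each other role list the 3 called genes with the smallest p in each knockdown line at 0 h. For the other comparisons the named pathway genes are some of those 3.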

Additional observations from a re-analysis of the deposited data

Results flagged for a closer look

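For 3 members a slope differed from that in shCtrl by the test of the difference itself. ACVR2B fell more slowly in both knockdown lines, with differences of 0.1005 log2 per hour in shSETD2 and 0.1551 in shMETTL14. ID2 fell faster in shMETTL14, with a difference of -0.177. TGFBR1 had a difference of -0.0651 in shSETD2, where the 6 h libraries held 34.0 and 45.5 CPM.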

How the results depend on the processing

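Counts of called members and pathway genes were within 1.5 times the reported ones under most settings. The exceptions concern differences between lines in the drug. Called slope differences in shSETD2 came to 1 of 8 members, against 2, with RLE factors, library size alone, at least 1 CPM in every library, DESeq2, limma on RPKM, a slope over 0, 1 and 3 h or GC trends removed. Of the pathway genes, 4 were called with RLE factors or DESeq2 and 5 with library size alone or the shorter slope, against 9. In shMETTL14 the shorter slope gave 1 member and 8 pathway genes, against 2 and 14, and GC removal gave 23 pathway genes. For the first hour, the pathway counts in shMETTL14 were 1 with at least 1 CPM or limma on RPKM and 6 with GC removal, against 3, and in shSETD2 1 with DESeq2 and 2 with GC removal, against 0. GC removal also called 2 members in shMETTL14, against 0. Among values called in at least 1 of the fits compared, or not tested, directions turned for TGFBR2 between the knockdown lines at 0 h (-0.20 with library size alone and with limma on RPKM, against 0.01), for the untested slope difference of BAMBI in shSETD2 (-0.011 over 0, 1 and 3 h, against 0.08), and for TGFBR1 with GC removal, whose first hour in shSETD2 was 0.13, against -0.03, and whose slopes were 0.0072, 0.0432 and 0.0282 in shSETD2, shMETTL14 and shCtrl. Values not called in either fit also changed sign, among them the differences of ACVR2B (-0.09), ID1 (-0.09) and ID3 (-0.04) between the knockdown lines with library size alone, against 0.12, 0.12 and 0.17, and the TGFBR1 slope in shCtrl over 0, 1 and 3 h (0.06). The cause was not tested. With 1 library left out, called members ran from 2 to 4 between the knockdown lines at 0 h, and for slope differences from 1 to 3 in shSETD2 and from 1 to 2 in shMETTL14. Called pathway genes ran from 4 to 12 and from 8 to 18 for those slope differences, from 0 to 2 and from 0 to 4 for differences in the first hour, and for the first hour itself from 21 to 34 in shSETD2 and from 16 to 29 in shCtrl. Replicate numbers were checked for pairing: differences between replicates 1 and 2 correlated between groups at -0.10 to 0.37 (median 0.06, 66 pairs). Such a check cannot exclude that libraries of the same number share more than the number. With a replicate block, ID2 in shSETD2 at 0 h passed (0.17, adjusted p = 0.0328), which made 8 called members, against 7, and no other member call changed. At 6 h, low counts of BAMBI limit its slopes.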

Other observations

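As a description of likeness, each gene past the filter with a highest group mean of at least 5 CPM (10816 genes) was compared with 3 members by Pearson correlation over the 12 group means of log2(CPM + 1), which share libraries and the fall in the drug. TGFBR2 was most like KIF13B (r = 0.968), MAX (0.950) and COQ10A (0.947). BAMBI was most like ZNF668 (0.997), PEAK1 (0.996) and KLHL26 (0.995), and ID1 most like ZNF670 (0.995), ZNF217 (0.991) and ZNF764 (0.990). With 0.1 in place of 1 the genes named for ID1 were the same 3, GRAMD3 (0.949) took the place of COQ10A for TGFBR2, and SMG8, IRF2BPL and GATA6 came first for BAMBI.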
